A study of Mus musculus with 10 samples.

Results

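BC017158 and AA467197 are a pair of genes that were high in 1 library of the series, epiblast-like cells (EpiLCs) made from an Otx2-/- embryonic stem cell (ESC) line, and low in the other 9. They were taken by symbol, 2 of 22867 genes in the deposited tables, and they had been chosen by their FPKM in these same 10 libraries. Their levels are therefore given as a description, without a test. The study profiled RNA of mouse ESCs and EpiLCs of 129SV origin to follow the passage from naive to primed pluripotency and the effect of losing or overexpressing Otx2, a homeobox transcription factor. Values are FPKM, fragments scaled to transcript length and library size, estimated per gene by the authors.

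All ESCs were kept naive in serum-free N2B27 medium with LIF and a pair of kinase inhibitors, PD0325901 against MEK at 0.8 µM and CHIR99021 against GSK3 at 3.3 µM. EpiLCs were made from them over 48 h in N2B27 medium with bFGF and knockout serum replacement. The control ESC libraries were 2 of the R1 line and 1 of the E14 line. The 3 control EpiLC libraries were R1 without activin A, R1 with activin A at 20 ng/ml, and E14. The Otx2-/- line gave 1 ESC library and 1 EpiLC library. Otx2-/- cells carrying a tetON Otx2 transgene gave 1 ESC library without doxycycline (dox) and 1 with it. The labels name a single Otx2-/- line and leave unsaid which part of Otx2 was removed. Activin A is stated for the R1 EpiLCs but neither for E14 nor for Otx2-/- EpiLCs. Each Otx2-/- condition is thus 1 library with no replicate check, and genotype, clone and culture cannot be told apart in it. Approximate depth was read from the 25th percentile of the nonzero FPKM values of olfactory receptor genes, taken as 1 fragment on 1 kb. It ran from 6.55M fragments in E14 EpiLC to 20.6M in R1 ESC replicate 2, with 12.9M in Otx2-/- EpiLC.

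BC017158 is listed by RefSeq as Rusf1, which encodes a member of a conserved family named after the plant root UV-B sensitive proteins, and whose function in mammals is little known. AA467197, also known as Nmes1, encodes a small mitochondrial protein related to Ndufa4, a subunit of cytochrome c oxidase that it can replace in inflamed cells. Its transcript also carries the hairpin of the microRNA miR-147, and in macrophages gene and microRNA are induced by inflammatory signals acting through NF-kB. In the deposited tables, on build mm9, BC017158 lies at chr7:135409211-135441645 and AA467197 at chr2:122463623-122466812. Each position is that of an assembled locus rather than of a transcript, and the BC017158 locus is shared with Slc5a2, a kidney glucose transporter gene. In GENCODE annotation on GRCm38, BC017158 is on the minus strand with 13 exons and 2627 nt in its first listed transcript, and AA467197 is on the plus strand with 5 exons and 792 nt. The 3′ end of BC017158 overlaps Slc5a2 on the opposite strand by 1052 bp.

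Both genes contain an annotated microRNA on their own strand, and neither microRNA has an entry in the deposited tables. The Mir147 hairpin (GRCm38 chr2:122640803-122640881) lies in the last exon of AA467197, after the end of the coding sequence. The Mir3103 hairpin (GRCm38 chr7:128288369-128288435) lies in BC017158 with 66 of its 67 bases outside the exons of the first listed transcript. The mature sequences are shown because they mark the stretches of the 2 genes that hold a microRNA. Only the Mir147 hairpin shares its bases with an exon of the first listed host transcript, apart from 1 base of Mir3103. They are given 5′ to 3′ as RefSeq lists them on GRCm38.p6, with the seed (bases 2 to 8) in capitals.
mmu-miR-147-5p: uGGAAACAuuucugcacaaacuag
mmu-miR-3103-5p: gGAGGGAGgaucugcuguuag
mmu-miR-3103-3p: uAACCUCUgauccuucccacag
No seed is shared among the 3 shown. For miR-147 only the 5p arm is given, and no 3p arm was compared.

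The 250 bases upstream of each RefSeq start were read for sites that could be looked for in genes that move together with Otx2 status. The window of AA467197 is GRCm38.p6 chr2:122637637-122637886 on the plus strand, at its only RefSeq start. In GENCODE annotation the gene starts upstream of this window, at 122636986, and the bases before that start were not read. The window of BC017158 (Rusf1) is GRCm38.p6 chr7:128298132-128298381 on the minus strand, at 1 of its 2 RefSeq starts. Capitals mark the single motif match found.
AA467197 promoter: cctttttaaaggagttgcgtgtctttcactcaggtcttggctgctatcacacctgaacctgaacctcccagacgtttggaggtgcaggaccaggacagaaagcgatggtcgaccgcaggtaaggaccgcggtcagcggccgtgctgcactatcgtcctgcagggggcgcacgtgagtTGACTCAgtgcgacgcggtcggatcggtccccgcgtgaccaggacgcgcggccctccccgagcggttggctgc
BC017158 promoter: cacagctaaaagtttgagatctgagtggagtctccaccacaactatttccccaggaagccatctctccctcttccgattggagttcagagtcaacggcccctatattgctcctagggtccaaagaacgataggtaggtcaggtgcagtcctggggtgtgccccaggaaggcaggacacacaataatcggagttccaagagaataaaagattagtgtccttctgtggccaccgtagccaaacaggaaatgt
Both strands were searched for TAATCC, the core bound by Otx2 and other homeodomain proteins of its class, for the AP-1 site TGANTCA, for the TATA box TATAAA and for the NF-kB site. The match is TGACTCA at bases -73 to -67 of AA467197, an AP-1 site, which is held by 6.75% of the 32851 RefSeq windows of this length. TAATCC, held by 6.25% of windows, TATAAA, held by 12.4%, and the NF-kB site, held by 3.9%, had no match in either window. The AA467197 window has 24 CG pairs, more than 88% of all windows, and a GC content of 62.8%. The BC017158 window has 5 CG pairs, near the median of 6, and a GC content of 50%. In these windows the pair has none of the searched motifs in common.

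BC017158 stood at 190 FPKM in Otx2-/- EpiLC. Among ESCs, R1 replicate 1 had 1.97 FPKM, R1 replicate 2 had 2.27 and E14 had 3.14, with 4.18 in Otx2-/- ESC. In control EpiLCs it was 1.77 FPKM for R1 without activin A, 1.93 for R1 with activin A and 3.66 for E14. The tetON cells had 3.71 FPKM without dox and 6.39 with dox. Every library but one thus lay between 1.77 and 6.39 FPKM, and the control ESC mean of 2.46 ± 0.609 (SD, n = 3) and the control EpiLC mean of 2.45 ± 1.05 (SD, n = 3) were nearly equal. Otx2-/- EpiLC was 29.8-fold above the next highest library, tetON ESC with dox, 77.5-fold above the control EpiLC mean and 45.4-fold above Otx2-/- ESC. BC017158 ranked 450th among all genes in Otx2-/- EpiLC, above 98.0% of them, and in the other libraries it was above between 51.8% and 64.6% of genes. In bulk RNA a very high level in some of the cells and a moderate level in all of them cannot be told apart.

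AA467197 reached 51.6 FPKM in Otx2-/- EpiLC and was close to the limit of detection elsewhere. The R1 ESC replicates had 0.496 and 0.141 FPKM, E14 ESC 0.237 and Otx2-/- ESC 0.201. R1 EpiLC had 0.0772 FPKM without activin A and 0.169 with it, and in E14 EpiLC, the library of the lowest depth, the gene was listed at 0. The tetON cells had 0.290 FPKM without dox and 1.31 with dox. No other library thus came near the level of Otx2-/- EpiLC, which was 39.4-fold above the next highest, again tetON ESC with dox, and 256-fold above Otx2-/- ESC. The gene was above 92.3% of all genes in Otx2-/- EpiLC. In fragments, estimated from the approximate depth of each library and a transcript of 792 nt, the 9 low libraries held between 0 and 9.49, and Otx2-/- EpiLC held 527. The same estimate for BC017158, with 2627 nt, gave between 56.6 and 226 fragments in the low libraries and 6440 in Otx2-/- EpiLC. The order among the low values of AA467197 therefore rests on a few fragments each, while the low levels of BC017158 rest on at least 56.6.

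**Figure D1:**
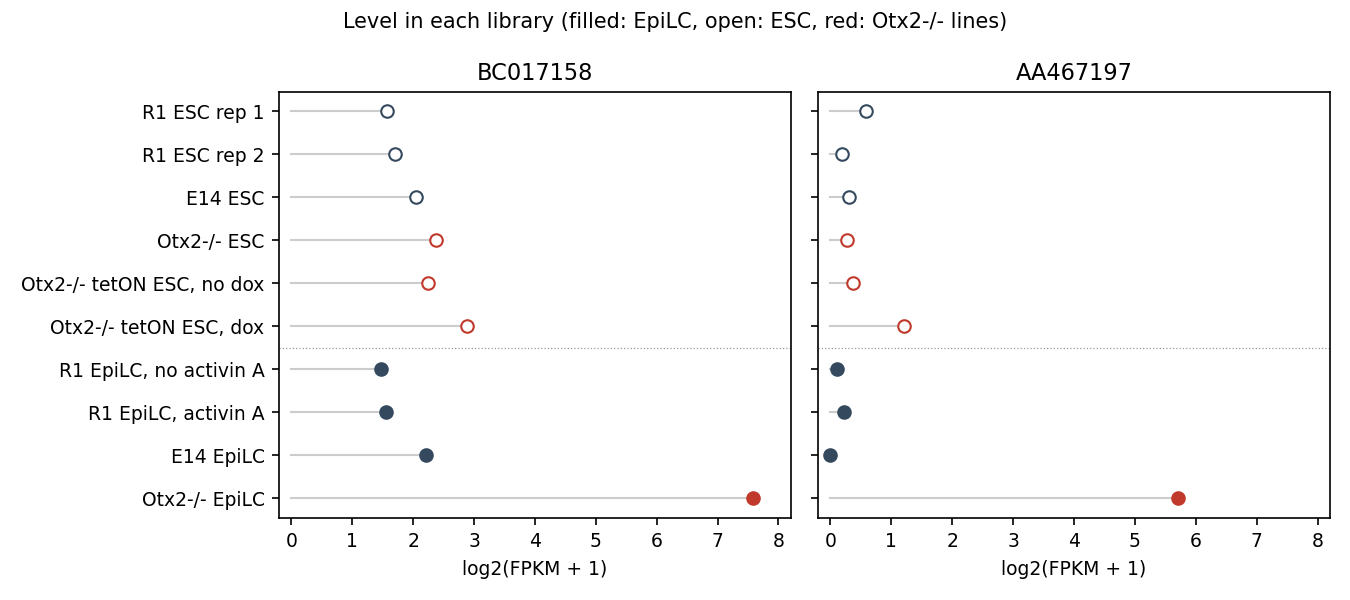
Level of BC017158 (left) and AA467197 (right) in each of the 10 libraries, as log2(FPKM + 1) on the horizontal axis, with 1 point per library, EpiLC filled, ESC open and Otx2-/- lines in red. The Otx2-/- EpiLC library stands alone at 7.58 for BC017158 and 5.72 for AA467197, and the next highest point of each gene is tetON ESC with dox, at 2.89 and 1.21.

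On the log2(FPKM + 1) scale, which compresses low values, the difference of Otx2-/- EpiLC from the control EpiLC mean was 5.83 for BC017158 and 5.60 for AA467197. Loss of Otx2 in the ESC state went with no such level. Otx2-/- ESC differed from the control ESC mean by 0.60 for BC017158 and by -0.10 for AA467197. Differentiation of the control lines moved neither gene by as much, with EpiLC minus ESC at -0.03 for BC017158 and -0.25 for AA467197. Between Otx2-/- ESC and Otx2-/- EpiLC, BC017158 differed by 5.20 and AA467197 by 5.45. In that pair of libraries 6.99% of the genes with at least 5 FPKM in either differed upward by at least 1, and 8.47% downward.

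The state of Otx2 itself did not order the libraries as these genes did. Otx2 was at 6.26 ± 2.60 FPKM (SD, n = 3) in control ESC, 99.1 ± 55.8 (SD, n = 3) in control EpiLC, 7.85 in Otx2-/- ESC and 15.8 in Otx2-/- EpiLC. What remains of the transcript in the Otx2-/- libraries cannot be assigned to a part of the gene from gene-level values. Without dox the tetON cells had 45.8 FPKM of Otx2, and with dox 1059.3 FPKM. The library with the most Otx2 was thus the one with the next highest level of both BC017158 and AA467197. From no dox to dox BC017158 differed by 0.65 and AA467197 by 0.84 on the log2(FPKM + 1) scale, in 1 library against 1. Both are under the size of 1 that 6.42% of the genes with 5 FPKM in either library passed upward.

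The low values of BC017158 fell in order of cell line, a pattern noticed after the values were seen. The 4 R1 libraries lay between 1.77 and 2.27 FPKM, the E14 libraries were at 3.14 and 3.66, and the other 3 Otx2-/- libraries were between 3.71 and 6.39. R1 did not overlap the others, but E14 EpiLC and the tetON library without dox differed by less than the E14 libraries did from each other. When the libraries were rescaled by median ratios, E14 EpiLC at 3.73 came above tetON without dox at 3.60, so the order of these neighbours is not settled. Among 12356 genes averaging 1 FPKM or more, 0.089% had R1 below E14 below all Otx2-/- libraries, and 0.615% had all 4 Otx2-/- libraries above the 6 controls. Both shares include Otx2-/- EpiLC, for whose high level BC017158 was chosen. BC017158 met that part of the pattern in advance, so these shares do not measure how rare the order of its low values is. With the ESC libraries alone, 5.08% of genes had the 3 Otx2-/- libraries above the 3 control ones, as BC017158 did, and 4.31% had them below. AA467197 showed no such order, with R1 ESC replicate 1 at 0.496 FPKM above every other library but the 2 highest.

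To place the pattern, every gene was asked whether it reached 5 FPKM in 1 library with a log2 lead of at least 2 over the next highest, on the FPKM + 1 scale. In Otx2-/- EpiLC, 14 of the 8570 genes with 5 FPKM there had such a lead, which is 0.163%. Of these, 11 were microRNA entries, between 20.2 and 423 FPKM in Otx2-/- EpiLC and at 0 in every other library. Mir374c was the highest of them and Mir302a the next, at 93.4. Another of the 14 was LOC100861570, listed at 0 in several libraries. The remaining 2 were BC017158, with a lead of 4.69, and AA467197, with a lead of 4.51. Under the same rule every library had small RNA entries that were high in it alone. They ranged from 3 in tetON ESC with dox to 15 in R1 EpiLC with activin A, with 11 in Otx2-/- ESC. Small RNAs and entries that a library lists at 0 against a median of at least 5 FPKM were left out of the counts that follow.

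**Figure D2:**
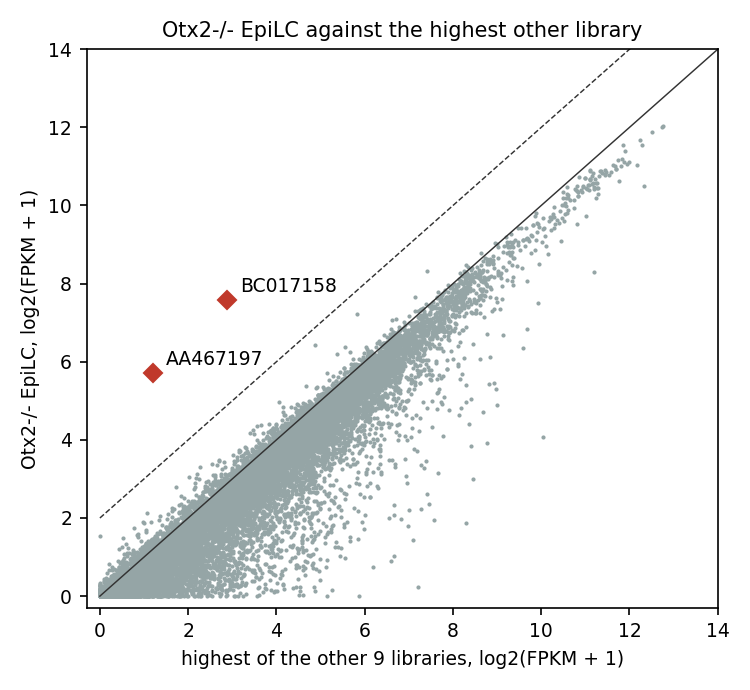
Otx2-/- EpiLC (vertical axis) against the highest of the other 9 libraries (horizontal axis), both as log2(FPKM + 1), with 1 point per gene, small RNAs and entries listed at 0 left out. The solid line is equality and the dashed line a lead of 2, above which only BC017158 and AA467197 lie among genes with at least 5 FPKM in Otx2-/- EpiLC.

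The same count in the other libraries was 69 for tetON ESC with dox and between 0 and 3 in each of the remaining 8, with 8 genes in all, spread over 4 libraries. The 2 genes of Otx2-/- EpiLC are thus within the range of counts that control libraries gave. Among those of the control libraries, Rps6ka4, a kinase gene, had 348 FPKM in R1 EpiLC without activin A and between 5.17 and 8.65 in the other 9 libraries. This lead of 5.18 was above those of BC017158 and AA467197. Epc1, a chromatin gene, had 200.1 FPKM in E14 EpiLC and between 5.07 and 30.8 elsewhere. Ctdsp2, a phosphatase gene, had 507 FPKM in R1 ESC replicate 1 against between 28.8 and 86.3 elsewhere, including the other R1 ESC replicate. Single libraries of the R1 and E14 controls thus also held genes far above their replicate or their state.

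Genes of this kind differed from others in whether they contained a small RNA, a pattern also noticed after the values were seen. Of the 10032 genes that reached 5 FPKM in any library, 9030 could be matched by symbol to the GRCm38 annotation, and 9 of them, 0.0997%, were high in 1 library other than the dox library. Of the 281 genes that contain on their own strand a small RNA with no entry in the tables, 7 were high in 1 library, which is 2.49%. These were BC017158 (Mir3103), AA467197 (Mir147), Rps6ka4 (Mir5046), Epc1 (Mir1893), Ctdsp2 (Mir26a-2 and Mir546), H19, an imprinted noncoding RNA (Mir675), and Rab11fip5 (Mir705). Leaving out BC017158 and AA467197, by which the pattern was noticed, 5 of the other 7 high genes contained such a small RNA. Of the 149 genes whose small RNAs all have entries of their own, 1 was high in 1 library (0.671%), Trpm1 with Mir211. Of the 8600 genes without a small RNA, 1 was, Nkx6-2, which is 0.0116%. In the dox library the shares were alike, 2 of 281 genes (0.712%) with an unlisted small RNA and 62 of 8600 genes (0.721%) without one.

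With a lead of at least 1 in place of 2, 8 of the 281 genes with an unlisted small RNA (2.85%) and 63 of the 8600 without a small RNA (0.733%) were high in 1 library other than the dox library. With a lead of at least 3 there were 3 high genes, Rps6ka4, BC017158 and AA467197, each with an unlisted small RNA. BC017158 and AA467197 had been chosen for being high in 1 library, so of these only Rps6ka4 is separate from the choice. They also count among the high genes with an unlisted small RNA at leads of 1 and 2. A gene-level FPKM does not show which bases of the gene the fragments covered, so fragments of the hairpin and of the host transcript cannot be told apart here. The conversion of FPKM to fragments depends on the length that was assumed. With the 67 nt of the Mir3103 hairpin in place of the transcript, 190 FPKM of BC017158 would be 164 fragments, and with the 79 nt of the Mir147 hairpin, 51.6 FPKM of AA467197 would be 52.5 fragments. Whether the small RNAs took part in the levels of BC017158 and AA467197 in Otx2-/- EpiLC was not tested.

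**Figure D3:**
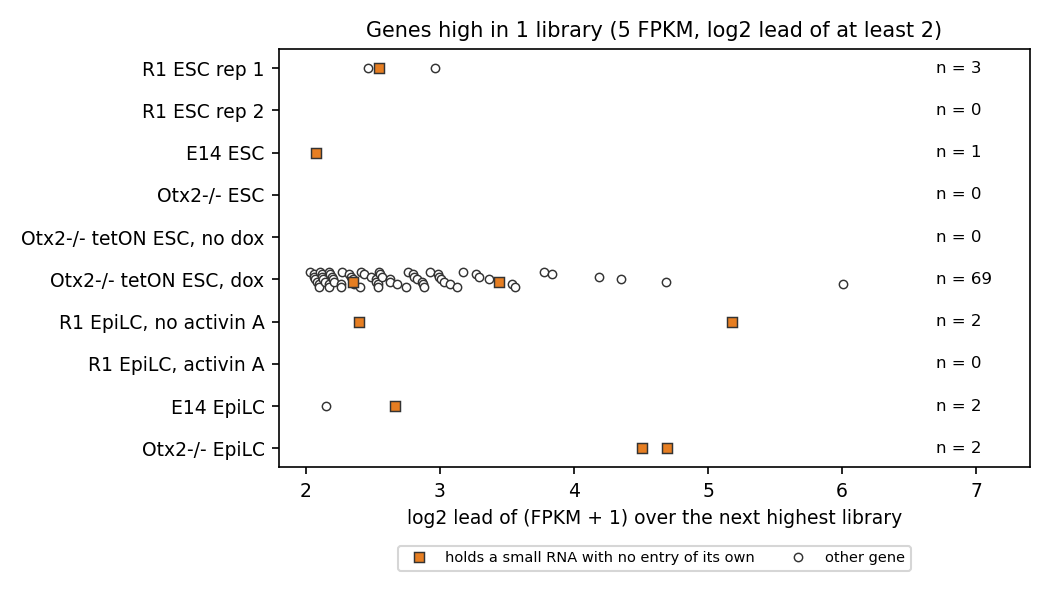
Genes high in 1 library, by library, with the log2 lead of (FPKM + 1) over the next highest library on the horizontal axis. Orange squares contain a small RNA with no entry of its own and open circles are other genes; n is the number per library, 69 in tetON ESC with dox and between 0 and 3 elsewhere, and both points of Otx2-/- EpiLC (BC017158 and AA467197) are squares.

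Neighbouring genes were read to see whether the high levels extended along the chromosome. In Otx2-/- EpiLC minus control EpiLC, by limma on log2(FPKM + 1), 0.163% of the 12271 genes tested passed an adjusted p of 0.05, 17 higher (0.139%) and 3 lower (0.0244%). Within 500 kb of BC017158 or AA467197 there were 50 other entries, 34 of them with enough signal to test. None passed limma's test, and 1 had an unadjusted p under 0.05, Sord, at -0.65. The median difference of the 34 was -0.0038 against 0.01 for all genes, with a range from -0.71 for Prss8 to 0.61 for Zfp668. Around BC017158 13 of 24 tested neighbours were on the positive side, and around AA467197 4 of 10. The largest upward difference among the neighbours was thus far from the 5.83 and 5.60 of BC017158 and AA467197.

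Of the 8 entries within 100 kb of BC017158, 2 were expressed well enough to test, Armc5 and Rgs10. Slc5a2, which overlaps it and shares its locus entry, was at 0.119 FPKM in Otx2-/- EpiLC, at 0 in the 3 control EpiLC libraries and at most 0.0653 in the others. Tgfb1i1, an adhesion adaptor gene 12.0 kb away, averaged 0.0516 ± 0.0191 FPKM (SD, n = 3) in control EpiLC and stood at 0.218 in Otx2-/- EpiLC. Armc5, 20.6 kb away, had 3.84 against 2.60 ± 0.522 (SD, n = 3), a difference of 0.44 with a standard error of 0.47, and its locus mate 9130023H24Rik was under 1 FPKM in all 10 libraries. Rgs10, a regulator of G protein signalling 75.5 kb away, had 2.37 against 2.12 ± 1.01 (SD, n = 3). Cox6a2, Itgad and 4931431B13Rik, 59.3 kb away, were at 0 in Otx2-/- EpiLC. Among the 4 EpiLC libraries Slc5a2, Tgfb1i1, Armc5 and 9130023H24Rik, the nearest 4 entries, were each highest in Otx2-/- EpiLC. Armc5 had 3.84 FPKM against 2.38, 2.21 and 3.19, and 9130023H24Rik had 0.485 against 0.0873, 0.128 and 0.466. Over all 10 libraries only Slc5a2 was highest there. Tgfb1i1 had 0.410 FPKM in Otx2-/- ESC, and Armc5 had 9.07 and 9130023H24Rik 0.658 in R1 ESC replicate 1. All of these but Armc5 were under 1 FPKM in Otx2-/- EpiLC. The share of all genes that are highest in Otx2-/- EpiLC among the EpiLC libraries was not counted, so no conclusion is drawn from this.

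The neighbours of AA467197 were expressed and differed little. Spata5l1, an ATPase gene 5.18 kb away, averaged 6.41 ± 1.45 FPKM (SD, n = 3) in control EpiLC and stood at 6.92 in Otx2-/- EpiLC. Gatm, the creatine synthesis enzyme gene 26.6 kb away, had 2.58, inside the control EpiLC range of 2.15 to 4.31. Slc30a4, a zinc transporter gene 40.2 kb away, had 2.30 against 1.54 ± 0.0865 (SD, n = 3), a log2 difference of 0.38 with a standard error of 0.18 and an adjusted p of 0.960 in limma. Pldn, a vesicle trafficking gene 97.4 kb away, had 8.48 against 8.38 ± 0.107 (SD, n = 3). Slc30a4 lay above the 1.45 to 1.62 FPKM of the control EpiLC libraries, and tetON ESC with dox had more, 3.23 FPKM. The gene nearest to AA467197, Spata5l1, lay within the range of the control EpiLC libraries.

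**Figure D4:**
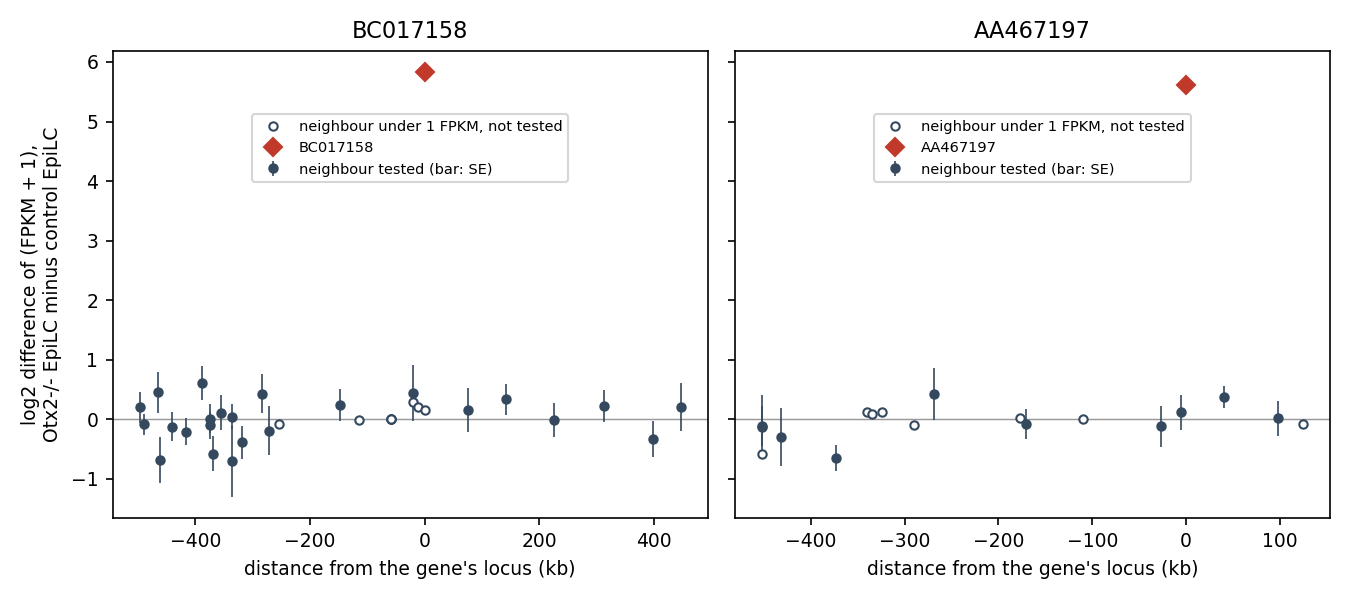
Log2 difference of (FPKM + 1), Otx2-/- EpiLC minus the control EpiLC mean, for BC017158 (left), AA467197 (right) and each entry within 500 kb, by distance from the gene's locus in kb. Diamonds are the genes themselves, filled points tested neighbours with their standard error and open points neighbours under 1 FPKM, and all tested neighbours lie between -0.71 and 0.61.

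The neighbours were also compared where Otx2 status or state differed in another way. In Otx2-/- ESC minus control ESC, where 0.139% of 12271 genes passed limma's test (0.0896% higher and 0.0489% lower), 1 of the 34 neighbours did. This was Setd1a, a histone methyltransferase gene 466 kb from BC017158, listed at 0 in Otx2-/- ESC and between 16.3 and 30.7 FPKM in the other 9 libraries, and an exact 0 of this kind can be a failed estimate. In control EpiLC minus control ESC, where 20.3% of 12244 genes passed (9.73% higher and 10.6% lower), 4 of the 34 neighbours rose and 1 fell. Around BC017158 these were Prss8, a serine protease gene, with a log2 difference of 2.68 (adjusted p = 0.00422, limma), and Vkorc1, of the vitamin K cycle, with 0.66 (adjusted p = 0.0317). Around AA467197 Gatm rose by 1.68 (adjusted p = 0.0122), Sord, the sorbitol dehydrogenase gene, rose by 1.20 and Shf, an adaptor gene, fell by 1.81 (adjusted p = 0.0109 for both). The calls among the neighbours, 5 of 34, were thus no more frequent than the 20.3% of all genes. BC017158 and AA467197 themselves stayed low in the control cells of both states. Control libraries decided some of these calls, and leaving out each in turn gave between 1 and 8 calls in place of 5, with 1 without R1 EpiLC without activin A, 2 without either other control EpiLC library and 8 without R1 ESC replicate 1.

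Likeness to other genes was described by Pearson's r of log2(FPKM + 1). Between BC017158 and AA467197 it was 0.979 over the 10 libraries, a value fixed by how the pair was chosen, and 0.581 over the 9 without Otx2-/- EpiLC. Of 10096 genes with 5 FPKM in some library, the next closest to BC017158 were BC030336 at 0.871, Apoo at 0.834, Socs6 at 0.807, Pja1 at 0.804 and Fam19a4 at 0.802. Closest to AA467197 after BC017158 were BC030336 at 0.815, Pja1 at 0.805, Csnk1g3 at 0.788, Fam19a4 at 0.787 and Mpv17l at 0.781. These genes were also highest in Otx2-/- EpiLC, but by far less. BC030336 had 8.76 FPKM there and between 6.35 and 7.66 elsewhere, and Apoo, a mitochondrial inner membrane gene, had 82.6 there and between 20.6 and 46.0 elsewhere. Over the 9 libraries without Otx2-/- EpiLC, r with BC017158 was 0.628 for Apoo, above that of AA467197, and 0.456, 0.450, 0.266 and 0.0339 for Pja1, BC030336, Socs6 and Fam19a4. With AA467197 it was 0.514 for Pja1, 0.285 for Csnk1g3, -0.0497 for BC030336, -0.176 for Fam19a4 and -0.465 for Mpv17l.

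Lists tied to what AA467197 is known for were read in the same contrast, Otx2-/- EpiLC minus control EpiLC, and none had a member that passed limma's test. Ndufa4, the relative whose place its protein can take, had 308 FPKM in Otx2-/- EpiLC and 305, 330 and 360 in the control EpiLC libraries. Of the cytochrome c oxidase subunits with Ndufa4 and its relative, 18 of 19 were tested, 1 had an unadjusted p under 0.05, and the median was -0.15 against 0.01 for all genes. The most abundant of them were Cox8a at -0.41, Cox7c at 0.25, Cox4i1 at 0.10 and Cox6c at -0.32. Of 24 NF-kB and inflammatory genes, 9 were tested, 1 had an unadjusted p under 0.05, and the median was -0.19. Among them Irf1, an interferon regulatory factor, stood at 27.2 FPKM against 79.3 ± 28.3 (SD, n = 3), and Nfkbia, the NF-kB inhibitor, 19.5 against 27.6 ± 17.3 (SD, n = 3). Sod2, which differed by 0.35, was the only 1 of the 9 on the positive side, Icam1 was at -0.69, and the cytokine genes Tnf, Il6, Cxcl1, Cxcl2, Ccl2 and Ccl5 were at 0 in all 4 EpiLC libraries. Another cytokine gene, Cxcl10, had 0.872 FPKM in Otx2-/- EpiLC and 1.99, 0.972 and 1.61 in control EpiLC. With 0.163% of all genes called in this contrast, 0 calls in lists of this size is the background level.

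Of 15 interferon response genes 8 were tested, all on the negative side, with a median of -0.86 and 4 at an unadjusted p under 0.05. Bst2 was at 119 FPKM against 129 ± 5.80 (SD, n = 3), and Stat2 at 6.72 against 14.1 ± 4.92 (SD, n = 3). Ifi35 was at 5.40 against 17.1 ± 5.36 (SD, n = 3), and Irf9 at 3.52 against 3.65 ± 0.0878 (SD, n = 3). The largest difference was -2.37 for Oasl2, with 1.43 FPKM against 12.7 ± 6.26 (SD, n = 3). Of 14 germline genes known to be silenced by promoter methylation 10 were tested, with a median of -0.12 and 0 at an unadjusted p under 0.05. Rpl10l had 15.9 FPKM against 11.3 ± 4.84 (SD, n = 3), Tuba3a 17.2 against 15.7 ± 1.37 (SD, n = 3) and Mael 18.2 against 37.5 ± 2.71 (SD, n = 3). The methylation-silenced genes thus lay on both sides of 0, with 3 of 10 positive.

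Markers of other cell types, macrophages and squamous epithelium among them because they are known to express AA467197, were read beside these levels, and their part in the result was not tested. Macrophage markers summed to 8.60 FPKM in Otx2-/- EpiLC and to between 6.76 and 11.5 in control EpiLC. Of the 10 listed, 4 were at 0 in Otx2-/- EpiLC (Emr1, Lyz2, Tyrobp and Aif1, of which the first 3 were at 0 in control EpiLC too), and 2 passed 1 FPKM there, Cd68 at 6.22 against 7.23 ± 1.79 (SD, n = 3) and Itgam at 1.74 against 1.35 ± 0.469 (SD, n = 3). Ptprc, the pan-leukocyte marker, was higher in Otx2-/- EpiLC, at 0.0757 FPKM, than in any other library, the next being 0.0136. This is at the limit of detection, since 0.0775 FPKM was taken as 1 fragment on 1 kb in Otx2-/- EpiLC. Squamous epithelium markers summed to 0.297 FPKM there and to between 0.155 and 0.458 in control EpiLC, with none at 1 FPKM. The sums for fibroblast, primitive endoderm and trophoblast markers were 5.24, 3.39 and 14.2 FPKM in Otx2-/- EpiLC, against control EpiLC ranges of 6.02 to 9.72, 3.79 to 4.58 and 8.38 to 24.6. Naive ESC markers summed to 116 FPKM in Otx2-/- EpiLC, within the 80.7 to 121 of control EpiLC and far under the 1079 to 1301 of control ESC. The EpiLC markers, Otx2 among them, summed to 512 FPKM, under the control range of 567 to 631. Without Otx2 the sum was 496 FPKM, within the control values of 512, 416 and 591. Of the 8 markers, 1 fell by limma's test, Fgf5, an epiblast growth factor gene, at 5.18 FPKM against 31.5 ± 3.83 (SD, n = 3). Krt18 (12.0 FPKM against 70.9, 84.6 and 20.6), Sall2 (11.0 against 17.2, 17.5 and 18.4) and Otx2 were also below every control EpiLC library. Pou3f1 and Sox3 were above every one, and Dnmt3a and Dnmt3b were within their range. Dnmt3b alone, at 289 FPKM, made up most of the sum without Otx2. By these markers the library in which BC017158 and AA467197 were high was one of EpiLCs with low Fgf5, Otx2, Krt18 and Sall2.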

How the data were processed

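RNA was measured in 10 libraries. Polyadenylated RNA was selected, fragmented and primed with random hexamers, per the labels' protocols, with no strand-marking step described, so reads of overlapping genes cannot be told apart. The deposited FPKM values were made with TopHat and Cufflinks on mm9, per the submitters' processing notes. No version, setting or gene annotation was given in the sources used here. The tables held 23112 entries each. Exact repeats (17) were dropped and 228 further entries sharing a symbol were summed, leaving 22867 symbols. Since these are not counts, only log-scale tests were run.

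From the deposited FPKM, log2(FPKM + 1) was computed, a scale that understates the change of low genes. Genes averaging 1 FPKM or more entered limma 3.58.1 under R 4.3.3 (trend, two-sided, Benjamini-Hochberg over all genes tested, threshold 0.05). Beyond this filter BC017158 and AA467197 were not taken out of the fits, and limma's results for them were not read. Otx2-/- libraries were compared in a fit of 8 libraries, with the lone library assumed to vary like the others. Control EpiLC and ESC were compared with the line as a covariate. The p-values measure only the spread between these libraries. The scripts were tested on simulated data. Neighbours were taken by deposited locus within 500 kb, and those within 100 kb or passing the test are named. For each list the most abundant members are named, with Ndufa4, Cxcl10, Oasl2, Ptprc, Itgam and the genes at 0 added after their values were seen. Small RNAs inside genes were taken from GENCODE and sequences from RefSeq, both on GRCm38, never joined to mm9 coordinates. BC017158, AA467197, the lists and the comparisons were chosen with earlier results of these data known. Alternatives changed the pseudocount, filter, scaling, window, controls and lead.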

Additional observations from a re-analysis of the deposited data

How the results depend on the processing

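With a pseudocount of 0.1 the difference of Otx2-/- EpiLC from control EpiLC was 6.29 for BC017158 and 8.26 for AA467197, and leaving out each control EpiLC library gave between 5.69 and 6.07 for BC017158 and between 5.55 and 5.66 for AA467197. The number of genes high in Otx2-/- EpiLC alone was 7 with a lead of at least 1. With a lead of at least 3, an alternative added after seeing the data, 3 single-library genes had an unlisted small RNA, BC017158 and AA467197 among them. No neighbour within 500 kb passed limma's test in Otx2-/- EpiLC minus control EpiLC under any alternative run. Within 250 kb, where 10 neighbours were tested, the count was 0 in Otx2-/- ESC minus control ESC. In control EpiLC minus control ESC it was 1, with a median of 0.41. There all 5 tested around AA467197 were positive, with a median of 0.52, and 2 of 5 around BC017158, with a median of -0.07. Within 1 Mb the count in control EpiLC minus control ESC was 12, and within 500 kb it was between 1 and 8 without each control library in turn. Small differences in Otx2-/- EpiLC changed sign for Gatm (0.11 with R1 as the only control line, and between -0.27 and 0.11 without each control library), Spata5l1 (between -0.030 and 0.26 without each control library) and Pldn (-0.010 under median-ratio scaling). The calls of Gatm, Sord, Shf and Vkorc1 in control EpiLC minus control ESC were lost under 13 alternatives in all, with their direction kept. No paired analysis was possible because only the R1 ESC libraries carry replicate numbers, and cell line was used as the block in control EpiLC minus control ESC, where 4 of the neighbours were called without it. A single Otx2-/- EpiLC library limits every statement on the pair, and depth leaves the low values of AA467197 at a few fragments.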

Other observations

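With a lead of at least 1 in place of 2, 5 further genes were highest in Otx2-/- EpiLC, each with 5 FPKM there. Cdkn1c, an imprinted inhibitor of cyclin-dependent kinases, had 85.2 FPKM in Otx2-/- EpiLC, and 14.2, 13.2 and 28.6 in the control EpiLC libraries, against between 2.64 and 12.5 in the 6 ESC libraries, the highest being tetON with dox. Bcl11a, a zinc finger transcription factor gene, had 8.87 FPKM in Otx2-/- EpiLC and 2.24, 2.95 and 3.80 in control EpiLC. Stox2 had 7.23 against 2.86, 2.84 and 3.03, and Fam19a4 5.94 against 0.674, 1.13 and 2.32. In these 4 genes the control EpiLC libraries were also above the control ESC libraries, unlike in BC017158 and AA467197. LOC100861571 had 148 FPKM in Otx2-/- EpiLC and 55.7 in R1 EpiLC without activin A, and was listed at 0 in the other 8 libraries. These are single-library values with no replicate check.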
